A study of Mus musculus with 10 samples.

Results

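The meiotic genes described here are 10 listed rows of a table of 13578 genes: the cohesin subunits Rec8, Stag3 and Smc1b, the synaptonemal complex genes Sycp2 and Syce2, the break genes Ccdc36 and Prdm9, the recombination genes Dmc1 and Tex15, and the crossover gene Msh5. All 10 were found by symbol. They were proposed with results of the vitamin C comparison in view, in which Rec8 and Ccdc36 lay among the rows of smallest p, so the differences between the treatment groups are given as a description, with their SE and no p for a member.

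RNA was sequenced from gonadal somatic cells, sorted as Oct4-, of single female mouse embryos (Gulo-/-, strain C57BL/6, embryonic day 13.5). Gulo encodes the enzyme that completes vitamin C synthesis, so these embryos depended on vitamin C from the diet. In 5 embryos vitamin C had been withdrawn from the colony early in gestation (withdrawn), and in 5 it had been supplied at physiological levels (supplied). The design text calls them biological replicates. In both groups embryos 2 and 3 carry the same leading title number, and the labels do not say whether such embryos are litter mates. Gulo itself was not analysed here. Values are rlog values, a regularised log2 scale that pulls weakly covered genes towards their mean. They run from 4.04 to 21.2 over the table, with sample medians between 9.12 and 9.14. Read depth is unknown and counting intervals are not available. Levels are not corrected for gene length, so they are compared between embryos and never between genes. Differences are withdrawn minus supplied in rlog, with ± for the SD of a group of n = 5 embryos, or SE where so named.

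Meiosis is the division by which germ cells become haploid, and in the fetal ovary of the mouse it begins at about the stage sampled here. Cohesin rings that carry the meiotic subunits Rec8, Stag3 and Smc1b hold sister chromatids together and form the axis on which homologous chromosomes pair. Breaks made on that axis at sites marked by Prdm9 are repaired by the recombinase Dmc1, and some of the repair intermediates, held by the Msh4-Msh5 complex, become crossovers. Retinoic acid induces Rec8 in germ cells of the mouse, and several genes of this group are repressed in somatic cells. Oct4 falls in female germ cells as they enter meiosis.

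The promoter windows of the 3 meiotic cohesin subunits and of Dmc1 are shown because the cohesin subunits lay on different sides of 0 in the comparison and because E2F6, a repressor of germline genes in somatic cells of the mouse, acts on Stag3 and Smc1b. Each window runs from 250 bases before to 50 bases after the gene start annotated by RefSeq on GRCm38.p6, another build than the mm9 of the submitters' processing notes. Capitals mark the E2F core TCCCGC, read on either strand, and the E-box CACGTG.
Rec8 chr14:55617916-55618215, plus strand: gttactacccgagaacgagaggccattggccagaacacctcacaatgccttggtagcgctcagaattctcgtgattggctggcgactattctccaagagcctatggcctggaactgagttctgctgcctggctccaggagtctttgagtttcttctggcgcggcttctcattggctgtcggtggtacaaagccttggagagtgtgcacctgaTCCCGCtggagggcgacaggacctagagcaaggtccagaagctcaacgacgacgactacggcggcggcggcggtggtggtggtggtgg
Stag3 chr5:138280259-138280558, plus strand: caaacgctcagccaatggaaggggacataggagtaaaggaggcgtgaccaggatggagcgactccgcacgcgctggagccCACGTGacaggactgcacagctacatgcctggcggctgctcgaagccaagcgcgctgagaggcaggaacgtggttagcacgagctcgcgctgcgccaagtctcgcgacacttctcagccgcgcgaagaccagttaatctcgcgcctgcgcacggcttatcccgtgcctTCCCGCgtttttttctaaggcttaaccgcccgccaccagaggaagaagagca
Smc1b chr15:85131908-85132207, minus strand: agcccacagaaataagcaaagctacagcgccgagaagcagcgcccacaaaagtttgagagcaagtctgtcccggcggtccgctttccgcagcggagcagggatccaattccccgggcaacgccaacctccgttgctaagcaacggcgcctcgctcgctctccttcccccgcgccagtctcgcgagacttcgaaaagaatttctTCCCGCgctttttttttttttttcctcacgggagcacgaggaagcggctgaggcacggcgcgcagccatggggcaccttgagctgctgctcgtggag
Dmc1 chr15:79605060-79605359, minus strand: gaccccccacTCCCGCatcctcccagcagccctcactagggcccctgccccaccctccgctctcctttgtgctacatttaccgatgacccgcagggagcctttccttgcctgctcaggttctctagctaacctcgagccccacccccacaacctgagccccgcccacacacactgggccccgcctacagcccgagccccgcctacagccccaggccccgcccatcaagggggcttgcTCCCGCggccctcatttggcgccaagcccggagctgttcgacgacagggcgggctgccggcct
The E2F core begins at position -38 from the annotated start in Rec8, at -2 in Stag3, at -47 in Smc1b, and at -240 and -13 in Dmc1. Stag3 alone of the 4 also has the E-box, at -170. Searched on both strands, the E2F core was in 9 of the 11 windows of the members (7 of the 9 genes with a window; the 2 windows of Syce2 overlap), against 6562 of all 32851 windows in the table. Ccdc36, under its current symbol Iho1, and Sycp2 had no match. Starts in GENCODE, used for the gene positions given below, differ for some members. The Ccdc36 window (chromosome 9, 108431777 to 108432076) lies outside the gene in GENCODE (108403611 to 108428484), so the sequence at that start was not searched. In GENCODE Rec8 starts at 55618037, inside its window and before the E2F core. Stag3 starts at 138280240 in GENCODE, before its whole window, which then lies inside the gene. The positions of its E2F core and E-box therefore hold for the RefSeq start only, and the sequence before the GENCODE start was not searched. The E-box was in 2 of the 11 windows (Stag3 and 1 of 2 of Syce2), against 7.15% of all windows. The STRA8 motif CNCCTCAG, which can overlap the E2F core, was in 3 of the 11 (1 each of Syce2, Msh5 and Prdm9), against 7.94%. The ratio of observed to expected CpG was 1.06 in Stag3 and 1.08 in Smc1b, higher than in 96.9% and 97.5% of all windows. It was 0.716 in Rec8 and 0.571 in Dmc1. The E2F core holds a CpG itself, and the windows were not matched for CpG content. No binding or methylation was measured in these cells, so a match describes the sequence only.

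Rec8, the meiotic kleisin that closes the cohesin ring, was lower in the withdrawn embryos than in the supplied ones. It was at 9.20, 9.10, 9.45, 8.86 and 9.18 in withdrawn embryos 1 to 5, against 9.50, 9.65, 9.64, 9.55 and 9.85 in supplied embryos 1 to 5. The groups did not overlap, and withdrawn embryo 3, the highest of its group, lay just below supplied embryo 1, the lowest of the other. The group means were 9.16 ± 0.214 in withdrawn and 9.64 ± 0.133 in supplied embryos, a difference of -0.48 (SE 0.0863), or 0.718-fold on the rlog scale. In sorted bulk cells, fewer cells of a type and less RNA per cell cannot be told apart.

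The other cohesin subunits lay on the opposite side. Stag3, the meiotic subunit that binds the kleisin, was at 8.50, 8.35, 8.35, 8.19 and 8.58 in withdrawn embryos, against 8.21, 8.12, 8.15, 8.19 and 8.38 in supplied embryos. The groups overlapped through withdrawn embryo 4, which was low, and supplied embryo 5, which was high. The means were 8.39 ± 0.153 in withdrawn and 8.21 ± 0.102 in supplied embryos, a difference of 0.18 (SE 0.0679). Smc1b, the meiotic variant of the Smc1 arm of the ring, was at 5.45, 5.57, 5.41, 5.49 and 5.82 in withdrawn embryos, against 5.46, 5.36, 5.41, 5.41 and 5.50 in supplied embryos. Its difference of 0.12 (SE 0.0576) rested largely on withdrawn embryo 5, and without that embryo it was 0.052. That embryo also had the highest value of Stag3 and of 5 of 12 germ cell markers with a row, Sall4 (6.72, against at most 5.96 in any other embryo), Lin28a (6.23, against 6.00), Kit (10.06, against 9.94), Tex14 (5.38, against 5.22) and Tfap2c (4.83, against 4.68). The rest of the 12 were highest in other embryos, such as Tdrd1 (5.77 in withdrawn embryo 5, against 6.06 in supplied embryo 4) and Prdm1 (7.95, against 8.49 in supplied embryo 4). Kit is not specific to germ cells. The part of germ cell RNA in the Smc1b and Stag3 values was not tested.

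The 2 synaptonemal complex genes had differences near 0. Sycp2, a protein of the lateral element that coats the chromosome axis, ranged from 4.65 to 4.73 in withdrawn and from 4.61 to 4.74 in supplied embryos, with a difference of -0.0058 (SE 0.0245). Syce2, of the central element that joins paired axes, ranged from 8.43 to 8.56 in withdrawn and from 8.43 to 8.55 in supplied embryos. Its difference was 0.0098 (SE 0.0440).

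Of the break genes, Ccdc36 separated the groups and Prdm9 did not. Ccdc36, now Iho1, anchors the break machinery to the chromosome axis. It was at 5.50, 5.47, 5.48, 5.52 and 5.48 in withdrawn embryos, against 5.67, 5.56, 5.65, 5.68 and 5.66 in supplied embryos. The withdrawn values lay close together, and supplied embryo 2 stood below the other supplied embryos and nearest to them. The means were 5.49 ± 0.0190 in withdrawn and 5.64 ± 0.0475 in supplied embryos, a difference of -0.16 (SE 0.0266). Prdm9, the histone methyltransferase that places breaks, ranged from 5.29 to 5.37 in withdrawn and from 5.27 to 5.37 in supplied embryos, a difference of 0.010 (SE 0.0248).

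Dmc1, the meiotic recombinase that carries strand invasion, was at 5.04, 5.07, 5.07, 5.04 and 5.05 in withdrawn embryos, against 5.09, 5.13, 5.11, 5.16 and 5.16 in supplied embryos. The groups did not overlap, but the difference was small, at -0.072 (SE 0.0215). Tex15, which is needed for the repair of meiotic breaks in the mouse, ranged from 8.92 to 9.05 in withdrawn and from 8.92 to 9.23 in supplied embryos, a difference of -0.076 (SE 0.0557). Msh5, the partner of Msh4 that stabilises crossover intermediates, ranged from 5.65 to 5.71 in withdrawn and from 5.71 to 5.79 in supplied embryos, a difference of -0.046 (SE 0.0255). Its groups overlapped only through supplied embryo 4.

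**Figure D1:**
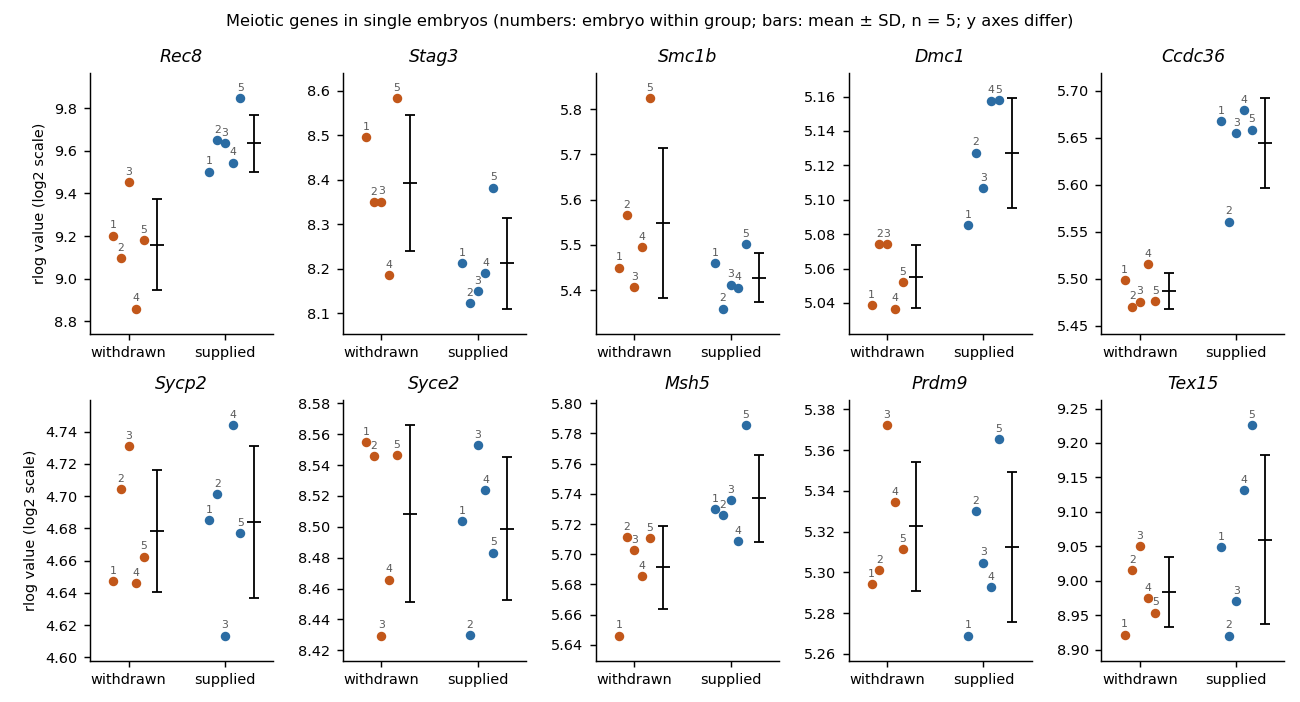
rlog value (log2 scale, y axes differ) of the 10 meiotic genes in each withdrawn and supplied embryo, numbered within its group, with the mean and SD (n = 5). The withdrawn embryos lie below all supplied ones in Rec8, Dmc1 and Ccdc36, and the groups overlap in the other 7 genes.

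In all, 6 of the 10 genes lay below 0 and 4 above, with a median difference of -0.026, against 0.00021 over all 13578 genes. No member passed limma's test over all genes at an adjusted p under 0.05 (0 of 10), where 3 of 13578 genes did (0.0221%), Zfp783, Rps4y2 and 1700106J16Rik, each of them lower in withdrawn embryos. At an unadjusted limma p under 0.05, 3 members were lower and 1 was higher, against 2.84% and 2.45% of all genes. The groups did not overlap, with withdrawn lower, in 3 members, Rec8, Dmc1 and Ccdc36, against 0.464% of all genes. With 1 embryo left out, the count past the adjusted threshold became 1 without withdrawn embryo 3 (Rec8) or without supplied embryo 2 (Ccdc36), the embryo of its group that lay nearest to the other group. As the members were chosen from this contrast, nothing is read from any of these counts.

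**Figure D2:**
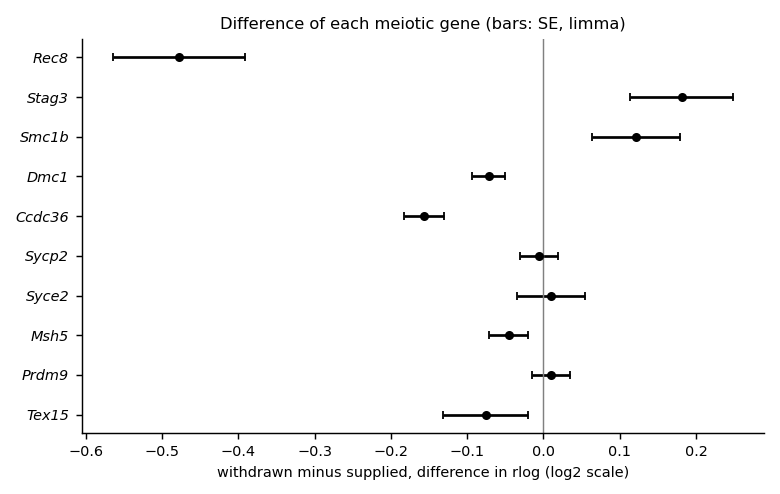
Withdrawn minus supplied in rlog (log2 scale) for the 10 meiotic genes, with bars for the SE from limma. Rec8 is at -0.48 and Stag3 at 0.18, and Sycp2, Syce2 and Prdm9 lie within 1 SE of 0.

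The scale of these rows differed. Rec8, Tex15, Syce2 and Stag3 had mean rlog values higher than 54.9%, 48.0%, 38.9% and 35.7% of all rows, whereas Msh5, Ccdc36, Smc1b, Prdm9, Dmc1 and Sycp2 were higher than only 8.26%, 7.16%, 6.58%, 5.46%, 3.88% and 1.45%. These are ranks of values with no length correction, and they bear on how strongly rlog shrinks a row, not on transcript abundance. The residual SD within groups was 0.178 for Rec8, against a median of 0.0730 over all genes, and 0.0260 for Dmc1, 0.0362 for Ccdc36 and 0.0343 for Prdm9. A difference of the size of that of Dmc1 is therefore small on a scale that understates the changes of weak rows.

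Whether Rec8 tracked the other 9 genes embryo by embryo was asked on deviations from the group means, which take out the treatment difference that chose the members. Rec8 deviated most in withdrawn embryos 4 (-0.30) and 3 (0.29) and in supplied embryo 5 (0.21). Supplied embryo 5 was also above its group mean in 7 of the other 9 genes, Stag3 (0.17), Tex15 (0.17), Smc1b (0.074), Prdm9 (0.053), Msh5 (0.048), Dmc1 (0.031) and Ccdc36 (0.014), and below it in Syce2 (-0.015) and Sycp2 (-0.0072). Withdrawn embryo 4 was, like Rec8, below its group mean in 7 of the 9, Stag3 (-0.21), Smc1b (-0.053), Syce2 (-0.043), Sycp2 (-0.032), Dmc1 (-0.019), Tex15 (-0.0081) and Msh5 (-0.0055), and above it in Ccdc36 (0.028) and Prdm9 (0.012). Withdrawn embryo 3 was divided. It was above its group mean in 5 of the 9, Tex15 (0.067), Sycp2 (0.053), Prdm9 (0.049), Dmc1 (0.019) and Msh5 (0.011), and below it in Smc1b (-0.14), Syce2 (-0.079), Stag3 (-0.042) and Ccdc36 (-0.012).

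Of the 9 genes, 6 correlated positively with Rec8 over the 10 embryos and 3 negatively, and none passed a test. The r values had a median of 0.34, against -0.0083 over all 13577 other genes, of which 49.2% were above 0. In a limma fit with the group and the Rec8 value as terms, 0 of 13577 genes (0%) passed at an adjusted p under 0.05, with 805 (5.93%) at an unadjusted p under 0.05, none of them a member. Prdm9 was closest, with Pearson's r = 0.61 (exact permutation within groups, two-sided, p = 0.0728) and Spearman's rho = 0.48 (exact permutation p = 0.175). Its limma adjusted p was 0.885. Stag3 followed with r = 0.53 (exact permutation p = 0.172) and rho = 0.47 (exact permutation p = 0.215). The Stag3 slope was 0.39 rlog per unit of Rec8 rlog (95% interval -0.0336 to 0.806, limma adjusted p = 0.837). Stag3, which lay above 0 between the groups where Rec8 lay below, deviated on the same side as Rec8 in 6 of 10 embryos within them.

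Dmc1 had r = 0.50 (exact permutation p = 0.116) and rho = 0.49 (exact permutation p = 0.142). Msh5 had r = 0.40 (exact permutation p = 0.273) with rho = 0.30 (exact permutation p = 0.428), Tex15 r = 0.34 (exact permutation p = 0.281) with rho = 0.079 (exact permutation p = 0.837), and Sycp2 r = 0.24 (exact permutation p = 0.495) with rho = 0.091 (exact permutation p = 0.816). Ccdc36, the other gene with groups well apart, had r = -0.29 (exact permutation p = 0.336) and rho = -0.48 (exact permutation p = 0.162). Its slope on Rec8 within the groups had a 95% interval from -0.239 to 0.121. Syce2 had r = -0.23 (exact permutation p = 0.590) with rho = -0.091 (exact permutation p = 0.826), and Smc1b r = -0.070 (exact permutation p = 0.857) with rho = -0.18 (exact permutation p = 0.672). The p-values of r and rho are unadjusted, and the adjustment over all genes is that of the limma fit. Within each group of n = 5, the r of Sycp2 was 0.67 in withdrawn and -0.27 in supplied embryos. That of Smc1b was -0.17 and 0.43. The other genes had the same sign in both groups, but r was 0.40 and 0.97 for Prdm9 and 0.097 and 0.89 for Msh5. The difference in r between the groups was not tested.

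**Figure D3:**
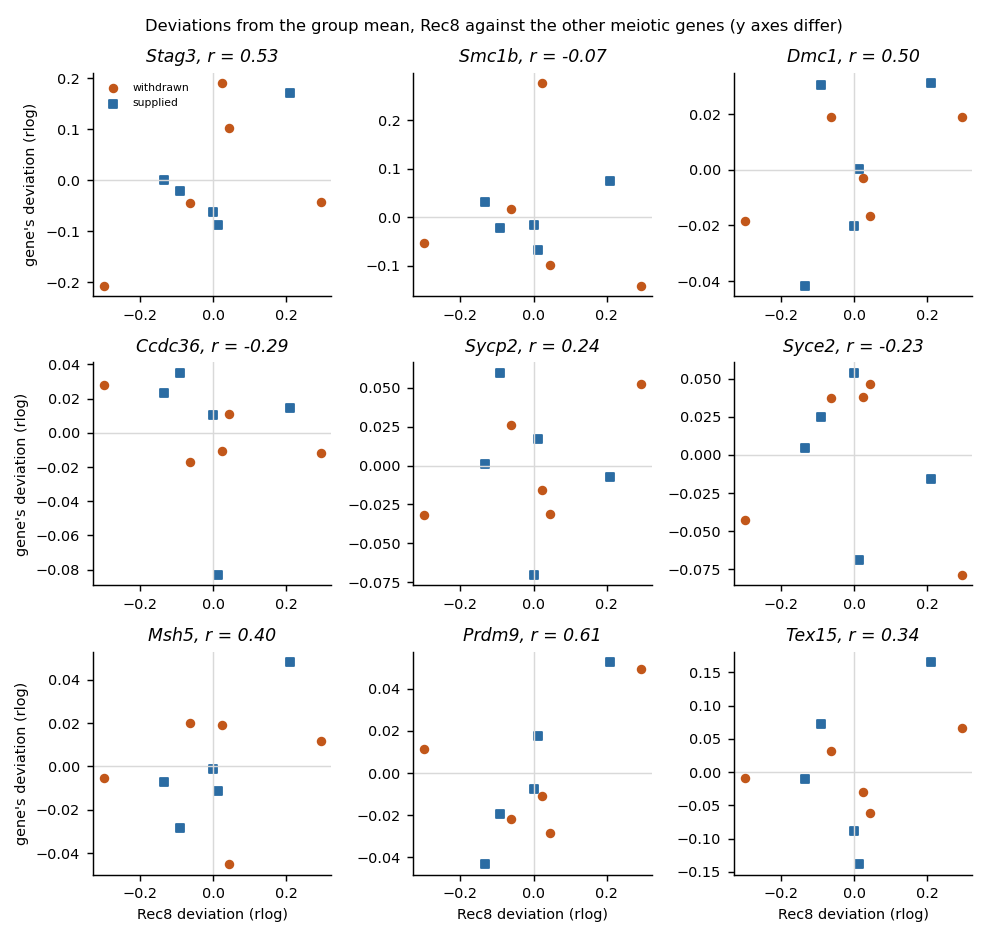
Deviation of each of 9 meiotic genes from its group mean (y, rlog, axes differ) against that of Rec8 (x, rlog), with withdrawn embryos as circles and supplied embryos as squares. Prdm9 (r = 0.61) and Stag3 (r = 0.53) lie nearest to a rising line, and Smc1b (r = -0.070) shows no slope.

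The r values moved with single embryos. With withdrawn embryos 4 and 3 left out, whose Rec8 deviations were the farthest from the median, r over the remaining 8 was 0.91 for Prdm9, 0.66 for Stag3, 0.50 for Msh5, 0.39 for Dmc1 and 0.32 for Tex15. It was -0.36 for Sycp2, -0.26 for Syce2, -0.11 for Ccdc36 and 0.16 for Smc1b, so the signs of Sycp2 and Smc1b rested on those embryos. With 1 embryo left out at a time, the r of Prdm9 ran from 0.38 (without withdrawn embryo 3) to 0.95 (without withdrawn embryo 4), and that of Stag3 from 0.19 (without withdrawn embryo 4) to 0.82 (without withdrawn embryo 3). For Dmc1 it ran from 0.36 (without supplied embryo 5) to 0.69 (without supplied embryo 4), for Msh5 from 0.12 (without supplied embryo 5) to 0.60 (without withdrawn embryo 1) and for Tex15 from 0.012 (without supplied embryo 5) to 0.44 (without supplied embryo 2). The sign changed in 3 genes. Sycp2 ran from -0.11 (without withdrawn embryo 3) to 0.44 (without supplied embryo 4), Syce2 from -0.63 (without withdrawn embryo 4) to 0.27 (without withdrawn embryo 3), and Smc1b from -0.25 (without withdrawn embryo 5) to 0.34 (without withdrawn embryo 3). Ccdc36 kept r below 0, from -0.63 (without supplied embryo 2) to -0.12 (without withdrawn embryo 4). With any 1 embryo left out, 0 genes passed the limma fit over all genes. With the embryos of a group that share a title number averaged, Stag3 had the highest r with Rec8 (0.71) and Prdm9 had 0.45. In that setting the r of Smc1b (0.20) and Syce2 (0.23) lay above 0. With quantile normalization the r of Dmc1 was 0.24.

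**Figure D4:**
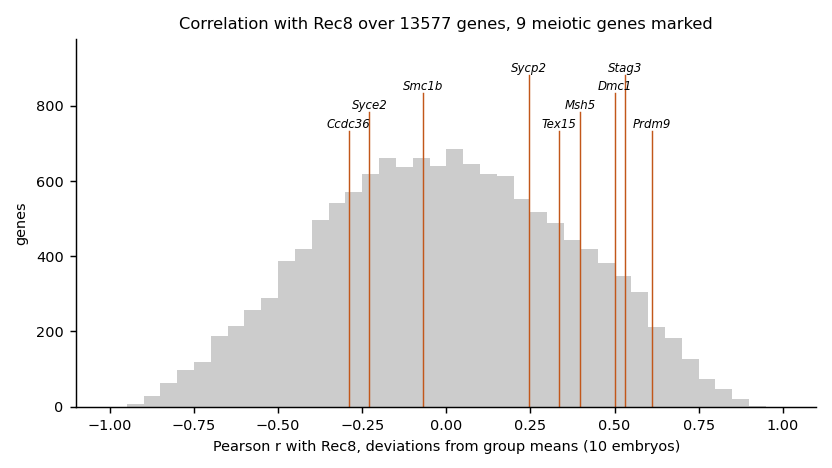
Number of genes (y) by their Pearson r with Rec8 over deviations from the group means of 10 embryos (x), with lines for the other 9 meiotic genes. The 9 genes run from -0.29 (Ccdc36) to 0.61 (Prdm9), inside the range of -0.93 to 0.91 over all genes.

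Among themselves the 10 genes form 45 pairs, of which 29 had an r above 0, with a median of 0.22. The highest was Dmc1 with Tex15 at r = 0.65 (exact permutation p = 0.115) and rho = 0.68 (exact permutation p = 0.112), and r was 0.80 without the 2 embryos farthest in Dmc1. Dmc1 with Sycp2 had r = 0.64 (exact permutation p = 0.0722) and rho = 0.65 (exact permutation p = 0.0543), and r was 0.95 without those 2 embryos. Stag3 with Smc1b, both subunits of the meiotic ring, had r = 0.62 (exact permutation p = 0.126) and rho = 0.50 (exact permutation p = 0.178). That relation rested on the 2 embryos farthest in Stag3, and without them r was -0.086. The pair of Syce2 and Prdm9 was the only 1 of 45 with an unadjusted exact permutation p under 0.05 (r = -0.71, p = 0.0322), and its rho of -0.59 had an exact permutation p of 0.0965. Without the 2 embryos farthest in Syce2 its r was -0.54.

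**Figure D5:**
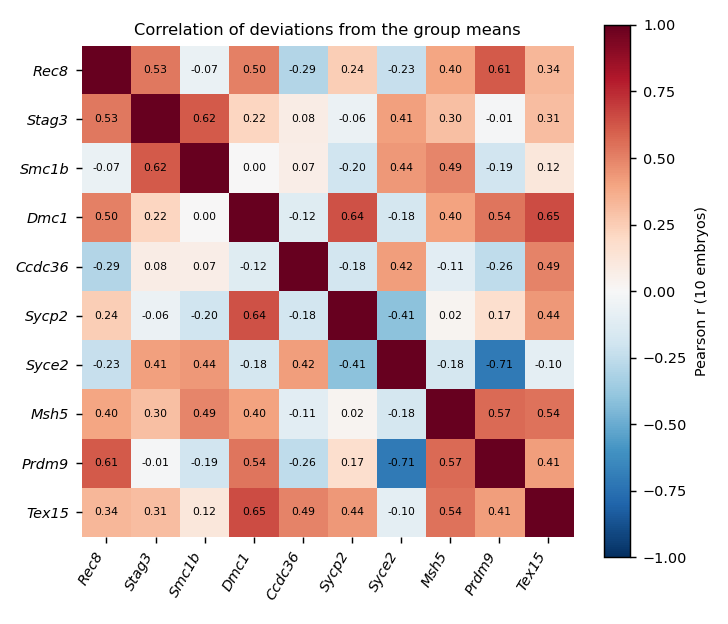
Pearson r of deviations from the group means over 10 embryos for each pair of the 10 meiotic genes, from blue (negative) to red (positive). Dmc1 is at 0.65 with Tex15 and 0.64 with Sycp2, and Syce2 is at -0.71 with Prdm9.

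Likeness to Rec8 over the whole table was ranked by p in the limma fit with group and Rec8 as terms. The genes of smallest p were, on the positive side, the potassium channel gene Kcnt1 (r = 0.87, limma adjusted p = 0.346), Gm20594 (r = 0.84), Necab3 (r = 0.91), the zinc finger gene Zfp692 (r = 0.84) and the kinase gene Araf (r = 0.84). On the negative side they were the chromatin gene Hmga2 (r = -0.86), the glypican Gpc6 (r = -0.89), Aldh1a2, which makes retinoic acid (r = -0.82), Vash2 (r = -0.91) and the transcription factor gene Bcl11a (r = -0.82). The limma adjusted p of these 10 genes, each over 10 embryos, lay between 0.346 and 0.764, so none passed.

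Other genes of the meiotic process, listed together with repressors of germline genes in somatic cells, were 81 tested of 121. They gave 0 calls in either direction by limma. At an unadjusted limma p under 0.05, 2 of the 81 were higher (Rybp and Setdb1) and 3 lower (Esco1, Zcwpw1 and E2f6). Over all genes 2.45% were higher and 2.84% lower, so these counts are near the share over all genes. The median difference of the 81 was -0.0035, with 39 above 0 and 42 below. Their r with Rec8 was above 0 in 33 of 81 (40.7%), against 49.2% of all genes. Of the 81, 19 are the repressors, among them Rybp, Setdb1 and E2f6, and only 2 of these 19 had an r above 0. The share of 40.7% is therefore not that of the meiotic process genes alone. The lists were written with earlier results of these data known. Of cohesin core and regulator genes, 18 of 20 were tested, with a median difference of 0.0055 and an r with Rec8 above 0 in 6. Esco1, which acetylates cohesin to establish cohesion, was at -0.12 (SE 0.0453, limma adjusted p = 0.907) and Pttg1, the securin that restrains cleavage of the kleisin, at 0.084 (SE 0.0518, limma adjusted p = 0.963). Smc1a, the general counterpart of Smc1b, was at -0.016 and had r = -0.57 with Rec8 (limma adjusted p = 0.877). Of the axis and synaptonemal complex genes only Trip13, an ATPase that remodels axis proteins, was tested (1 of 10), at -0.021 (limma adjusted p = 0.995) and with an r with Rec8 of -0.16. Sycp1, Sycp3, Hormad1 and the others of that list were not analysed here.

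Of 13 break formation genes 6 were tested, with a median difference of -0.015 and an r with Rec8 above 0 in 2. Zcwpw1, a reader of the marks that Prdm9 sets, was at -0.15 (SE 0.0612, limma adjusted p = 0.928), and Rbbp8, which starts the resection of breaks, at -0.074 (SE 0.0450, limma adjusted p = 0.962). Of 24 strand invasion and repair genes 19 were tested, with a median difference of -0.0041 and an r with Rec8 above 0 in 10, where Psmc3ip, a partner of Dmc1, was at -0.083 (limma adjusted p = 0.963). In the fit against Rec8, Sfr1 had r = -0.54 and Rpa2 r = 0.43 (limma adjusted p = 0.906 and 0.908). Of 16 genes of meiotic entry, telomeres and movement 8 were tested, with a median difference of 0.013 and an r with Rec8 above 0 in 4. In that list Rbm46 was at -0.051 and the retinoic acid receptor Rarb at -0.075 (limma adjusted p = 0.962 and 0.978). Against Rec8, Rarb had r = -0.65 and Ccdc155, now Kash5, r = 0.51 (limma adjusted p = 0.834 and 0.863).

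Of 18 crossover genes 10 were tested, with a median difference of -0.026 between the groups, and 9 of the 10 had an r with Rec8 above 0, with a median r of 0.31. The resolvase gene Mus81 had r = 0.64 and the helicase gene Hfm1 r = 0.65, each at a limma adjusted p of 0.834. None passed over all genes and 3 of the 10 had an unadjusted limma p under 0.05, against 5.93% of all genes. The third was the mismatch repair gene Mlh3 (r = 0.83). Of 20 repressors of germline genes 19 were tested, with a median difference of 0.0077, an r with Rec8 above 0 in 2 and a median r of -0.26. Cbx3, a heterochromatin protein, had r = -0.85 and Hdac2, a histone deacetylase, r = -0.68 (limma adjusted p = 0.834 and 0.837). E2f6 was at -0.12 (SE 0.0481) between the groups and Rybp, of the same kind of Polycomb complex, at 0.10 (SE 0.0443), both at a limma adjusted p of 0.928. These lists had no test of their own, and their genes share the same 10 embryos.

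Markers of cell types were set beside these values. Of 40 germ cell markers 12 were tested, and the defining ones, Ddx4, Dazl and Pou5f1, were not analysed here. Some of the 12, such as Kit and Prdm1, are not specific to germ cells. The sum of 2 to the power of rlog over the 12 ranged from 1463 to 1850 in withdrawn and from 1506 to 1818 in supplied embryos. Kit (mean rlog 9.79) and Prdm1 (8.08) weigh most in it, with Elavl2 (6.62) next, so the sum does not measure germ cell content. The r of the 12 markers with Rec8 had a median of 0.035 and ran from -0.32 to 0.46. With the mean of the 12 markers as a covariate the Rec8 difference was -0.48, as without it. As the 12 lack the defining markers, the part of germ cell RNA in the Rec8 values was not tested. With that covariate the highest r with Rec8 were 0.63 for Prdm9 (unadjusted p of the limma slope = 0.148) and 0.62 for Stag3 (unadjusted p of the limma slope = 0.0445). Between the groups 6 of the 12 lay above 0 and 6 below, with a median difference of 0.0052 and a range from -0.20 (Tdrd1) to 0.22 (Sall4), and none passed limma over all genes. Ovarian supporting cell markers, 14 of 14 tested, gave sums from 41546 to 46201 in withdrawn and from 41400 to 46953 in supplied embryos, and 13 of them had an r with Rec8 above 0 (median 0.32). Stromal progenitor markers, 8 of 8 tested, gave sums from 95192 to 110014 in withdrawn and from 81690 to 102656 in supplied embryos, with a median r of -0.31. The part of supporting and stromal cell shares in the Rec8 values was not tested. The median r was -0.17 for 8 of 8 endothelial, 0.022 for 7 of 7 macrophage and 0.19 for 7 of 8 erythroid markers.

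Neighbouring genes were checked because the sources used here do not say whether counting used strand. On GRCm38, Rec8 (chromosome 14, 55618037 to 55625395, plus strand) ends 4 bases from the end of Ipo4 on the opposite strand, so their reads cannot be told apart where transcripts run on. Ipo4, an importin, was at 11.11 ± 0.0707 in withdrawn and 11.05 ± 0.0689 in supplied embryos, a difference of 0.066 (SE 0.0470, limma adjusted p = 0.974), with an r of -0.032 with Rec8. On the other side Irf9 lies 8006 bases away, at 0.10 (SE 0.0489, limma adjusted p = 0.931) with r = 0.46. Syce2 overlaps Gcdh on the opposite strand, which was at -0.016 (SE 0.0509). Ccdc36 overlaps 1700102P08Rik on the opposite strand, which was not analysed here, so its values are uncertain in the same way. Smc1b and Prdm9 each overlap a processed pseudogene on the opposite strand, Gm10923 and Gm18564. Dmc1 overlaps the miRNA gene Gm27903 on its own strand. None of these overlapping genes was analysed here. Stag3 starts 234 bases from Gpc2, which points away from it and was at 0.089 (SE 0.0666, limma adjusted p = 0.978). Smc1b starts 113 bases from Ribc2, which was not analysed here.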

How the data were processed

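Expression was measured by RNA sequencing of sorted gonadal cells of 10 single embryos, with 2 ng of total RNA per library per the labels' protocols. The authors deposited 1 table of rlog values (log2 scale). The submitters' processing notes name Trim Galore 0.4.0, TopHat2 2.1.1, DESeq2 1.20.1 and build mm9. The annotation, counter and strandedness were not stated. Depth is unknown. Each of the 10 columns carries 1 sample's title, and no gene had equal values in any 2 samples (0%).

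Here the whole table was fitted with limma 3.58.1 in R 4.3.3 (variance trend, mean rlog of at least 3, which removed 0 genes and left all 10 members), once for withdrawn minus supplied and once with group and Rec8 as terms. P-values were adjusted over all genes by Benjamini-Hochberg at 0.05. Correlations used deviations from group means and exact permutation of embryos within groups (14400 orders). The scripts were tested on simulated data. P-values measure the spread between these embryos.

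Named genes were the 10 members, the 2 of smallest p in each fit from each process list, the 5 nearest to Rec8 in each direction, and neighbours. Mlh3, Setdb1, the germ cell markers given with values and the 3 genes past the threshold were named after their values were seen. Of the genes this rule names, 1 is not reported here. The members and lists were chosen with earlier results of these data known. Older symbols, positions and promoter windows came from GENCODE M21 and RefSeq tables on GRCm38. Promoter windows matched 9 of 10 members. Other settings are listed with the limits.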

Additional observations from a re-analysis of the deposited data

Results flagged for a closer look

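Of the 20 groups of 5 embryos (10 genes in each treatment group), 1 held an embryo far from the others. Ccdc36 was at 5.56 in supplied embryo 2, with the nearest supplied embryo at 5.65 and a gap of 0.792 of the group's range, above Dixon's 95% critical value of 0.71. Chance marks about 1 in 20 such groups.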

How the results depend on the processing

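The count of genes past the limma threshold between the groups was 3. It was 1 with a mean minimum of 7, without the variance trend, with quantile normalization and with embryos of a shared title number averaged. It was 5 with robust variance moderation, sample weights or the germ cell covariate. The member Ccdc36 was among the 5 with robust variance moderation and with sample weights. With 1 embryo left out the count ranged from 0 to 4. The count of genes that vary with Rec8 was 0, 3 with sample weights, and 0 with any 1 embryo left out. Of the other listed genes, repressors included, 0 passed in any setting. The number of the 9 genes with an r above 0 stayed between 5 and 8, and between 6 and 7 with 1 embryo left out. It was not computed at a mean minimum of 5 or 7, which removes weak members. Supplied and withdrawn embryos with the same number from 1 to 5 did not deviate together (r over 0.1 for 1 of 5 numbers, and 0 of 5 correlated best with their own number). That comparison is between the groups and does not bear on embryos 2 and 3 of a group, which share a title number. With a replicate block, which joins the supplied and withdrawn embryos of the same number, 2 genes passed between the groups and 1 varied with Rec8. In that setting 5 of 9 genes had an r above 0. The r values ran from -0.76 for Smc1b (unadjusted p of the limma slope = 0.0172) to 0.89 for Dmc1 (unadjusted p of the limma slope = 0.188). The Rec8 difference stayed between -0.55 and -0.40, and that of Ccdc36 between -0.18 and -0.14. The differences of Stag3 and Smc1b stayed above 0, and those of Dmc1, Msh5 and Tex15 below. The causes of these changes were not tested. Without read counts the depth limit of the 6 weak rows cannot be stated.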
